A study of Mus musculus with 7 samples.

Results

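The genes examined here are those of the unfolded protein response and of the Atf4-driven amino acid response, in myoblasts of mice that lack Hmga2 and of wild type mice. A list of 46 genes was drawn up from knowledge of these pathways, and 45 of them were measured among 18193 genes; Pycr1, an enzyme of proline synthesis, is paired with no probe set in the platform table. Each gene was read from the probe set with the highest mean over all samples. The members comprise 6 sensors and primary transcription factors, 22 measured targets of Atf4, and 17 chaperones, folding enzymes and disposal factors of the endoplasmic reticulum (ER).

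Gene expression was measured on Affymetrix mouse arrays, 1 per sample. The 4 Hmga2 KO samples were myoblasts, the precursor cells of muscle fibres, from C57BL/6 mice with the genotype Hmga2 -/-, with males as replicates 1 and 3 and females as replicates 2 and 4. The 3 wild type samples were myoblasts from C57BL/6 females, and no sample received a treatment. The sources used here do not give ages, the passage of the cells or the design of the deleted allele. None of the 7 samples is a male wild type sample, so the genotype difference rests in part on samples of unequal sex.

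The unfolded protein response acts when unfolded proteins gather in the ER. The sensors Ern1 (IRE1), Eif2ak3 (PERK) and Atf6 report this state, Ern1 by splicing the mRNA of Xbp1, Eif2ak3 by phosphorylating the initiation factor eIF2alpha, and Atf6 by releasing its own cytosolic part as a transcription factor. Eif2ak4 (GCN2) phosphorylates the same initiation factor when amino acids are scarce, and the Atf4 protein is then translated and turns on genes of amino acid synthesis and uptake. Much of this regulation acts on translation, splicing and proteolysis, which an array of total mRNA does not read. The unfolded protein response is also known to be active while myoblasts differentiate.

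The target genes are commonly distinguished by short promoter motifs, and a search for them in the RefSeq promoter windows (250 bases before to 50 after the start, assembly GRCm38.p6) is shown first. The C/EBP-ATF response element, searched as TGATGNAA on both strands, was in the window of 7 of 19 Atf4 target genes with an entry, in 1 of 15 ER chaperone and disposal genes, and in 4.51% of all 27025 genes with a window. The ER stress element, searched as CCAAT and CCACG with 9 bases between them on both strands, was in 7 of 15 ER genes, 0 of 19 Atf4 targets and 0.137% of all genes. TGACGTG, the core of the unfolded protein response element, was in 1 ER gene, Hspa5, and in 2.22% of all genes. Such matches describe the letters in these windows and are no evidence of binding. Their relation to the expression values was not tested.

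Of the Atf4 targets with a match, the 3 with the smallest p between the genotypes are printed, with the matching bases in capitals. The windows lie at chr2:152344011-152344310 (minus strand), chr6:7693160-7693459 (minus strand) and chr19:27216770-27217069 (plus strand), and each is written on the gene's own strand, 5′ to 3′.
Trib3: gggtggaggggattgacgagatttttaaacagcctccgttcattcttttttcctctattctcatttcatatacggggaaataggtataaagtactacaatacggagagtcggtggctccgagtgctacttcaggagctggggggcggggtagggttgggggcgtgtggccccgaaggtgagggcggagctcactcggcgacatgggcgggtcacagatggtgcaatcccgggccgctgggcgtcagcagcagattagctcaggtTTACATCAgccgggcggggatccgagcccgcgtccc
Asns: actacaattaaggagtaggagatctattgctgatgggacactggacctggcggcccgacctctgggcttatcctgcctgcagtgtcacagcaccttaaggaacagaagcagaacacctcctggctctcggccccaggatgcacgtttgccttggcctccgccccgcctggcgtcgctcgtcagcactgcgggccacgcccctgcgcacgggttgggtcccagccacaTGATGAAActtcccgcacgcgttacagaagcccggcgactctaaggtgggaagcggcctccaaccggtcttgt
Vldlr: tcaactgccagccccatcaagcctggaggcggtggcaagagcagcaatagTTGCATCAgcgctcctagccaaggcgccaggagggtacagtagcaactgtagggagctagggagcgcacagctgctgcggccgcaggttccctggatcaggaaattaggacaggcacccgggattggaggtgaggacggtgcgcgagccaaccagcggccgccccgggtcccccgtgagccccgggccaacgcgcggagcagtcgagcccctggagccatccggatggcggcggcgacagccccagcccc

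For the ER genes, the same choice gave Pdia6 at chr12:17266339-17266638 (plus strand), Dnajc3 at chr14:118937682-118937981 (plus strand) and Hspa5 at chr2:34771840-34772139 (plus strand). The capitals mark the ER stress element with its 9 inner bases.
Pdia6: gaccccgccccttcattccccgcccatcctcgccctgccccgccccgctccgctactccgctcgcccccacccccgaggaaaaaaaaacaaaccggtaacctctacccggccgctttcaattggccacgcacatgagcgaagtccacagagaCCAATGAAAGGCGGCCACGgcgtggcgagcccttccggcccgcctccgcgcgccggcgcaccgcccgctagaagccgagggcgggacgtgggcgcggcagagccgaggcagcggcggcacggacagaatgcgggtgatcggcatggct
Dnajc3: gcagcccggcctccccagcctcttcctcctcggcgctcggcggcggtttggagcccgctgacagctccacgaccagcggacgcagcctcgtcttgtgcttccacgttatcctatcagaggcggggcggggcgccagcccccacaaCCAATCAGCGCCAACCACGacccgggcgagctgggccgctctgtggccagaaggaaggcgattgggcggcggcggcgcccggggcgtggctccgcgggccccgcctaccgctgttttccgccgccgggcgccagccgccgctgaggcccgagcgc
Hspa5: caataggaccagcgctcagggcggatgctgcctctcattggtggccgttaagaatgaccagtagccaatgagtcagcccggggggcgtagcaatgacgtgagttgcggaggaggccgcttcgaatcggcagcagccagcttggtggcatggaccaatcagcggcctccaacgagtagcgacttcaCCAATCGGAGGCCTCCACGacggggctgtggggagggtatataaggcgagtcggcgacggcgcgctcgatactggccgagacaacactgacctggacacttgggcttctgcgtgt

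In the Asns window, the match to the C/EBP-ATF element runs from base -23 to base -16 relative to the start, and in Hspa5 the ER stress element runs from base -65 to base -47. The other measured Atf4 targets with a match were Chac1, Atf3 and Slc1a4. The other ER genes with an ER stress element were Calr, Canx, Creld2 and Hsp90b1, the last with 2 copies.

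The labels and the cell type were checked first. On its brightest probe set Hmga2 had a mean log2 value of 6.59 ± 0.12 (SD, n = 4) in Hmga2 KO and 13.49 ± 0.18 (SD, n = 3) in wild type (limma adjusted p = 1e-08). The myoblast genes Myod1, Pax7, Myog, Des and Cdh15 were at 10.78 or more in every sample. Myf5, a further myoblast gene, was at 10.72 to 12.25 in Hmga2 KO and at 10.46 to 10.95 in wild type. It differed by 0.64 (adjusted p = 0.431, limma) and Des by -0.33 (adjusted p = 0.413, limma). The others differed by -0.17 to 0.10. Log2 values of sample pairs correlated across genes at 0.985 to 0.994 within a genotype and at 0.980 to 0.993 between genotypes. The 3′ to 5′ ratio of the Actb control probe sets, a sign of RNA integrity, was 1.64 to 1.74 in Hmga2 KO and 1.62, 1.94 and 1.61 in wild type replicates 1 to 3, so that wild type replicate 2 stood highest. The highest intensity on the array of Hmga2 KO replicate 1 was 105395, against 26181 to 38896 on the other arrays.

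None of the members differed by genotype past the threshold, and the values of most lay slightly lower in Hmga2 KO. By limma with Benjamini-Hochberg adjustment over all genes, 0 of 45 members had an adjusted p under 0.05, against 0.0275% of all genes, and the smallest adjusted p of a member was 0.259. At an unadjusted p under 0.05, 4 members were lower in Hmga2 KO, where 10.3% of all genes were, and 0 were higher, where 2.99% were; the members' 4 are thus near the share of all genes, whereas with a trended and robust prior 9 were lower, where 9.82% of all genes were. The means of 37 of 45 members (82.2%) were lower in Hmga2 KO, as were those of 67.6% of all genes, whose median difference was -0.07 on the log2 scale. After quantile normalization 2 members were lower and 1 higher at that p, where 6.47% and 4.42% of all genes were. Median differences were -0.23 for the Atf4 targets, -0.12 for the ER genes and -0.10 for the sensors and primary factors. Of the Atf4 targets 20 of 22 had lower means in Hmga2 KO (18 after quantile normalization), and of the ER genes 13 of 17 (11 after it). After it, 57.2% of all genes had lower means, against 67.6% before. Fewer cells of a given state and less RNA per cell cannot be told apart in such bulk samples.

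**Figure D1:**
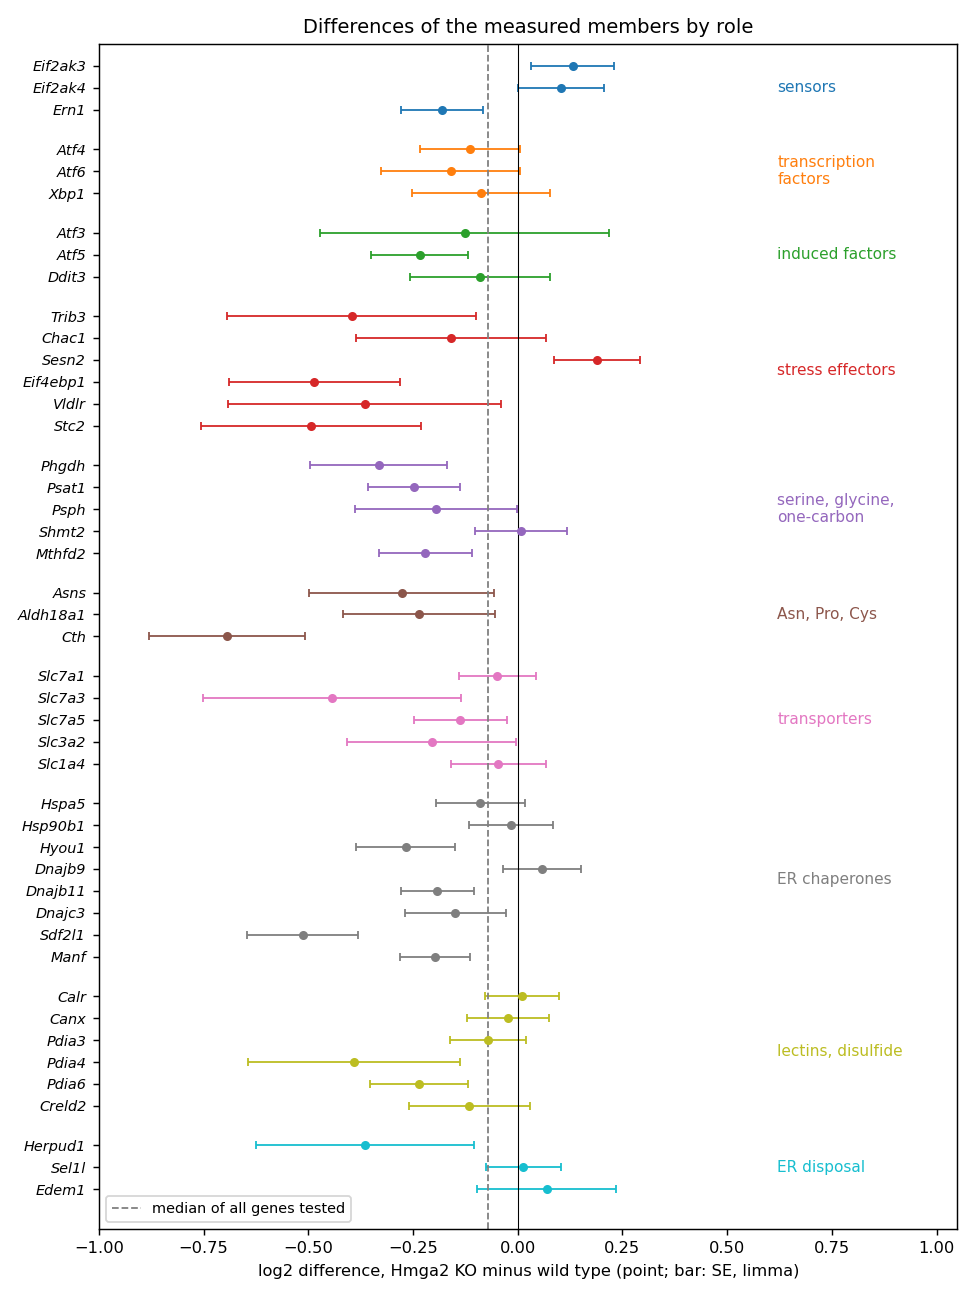
Log2 difference (Hmga2 KO minus wild type) of each of the 45 measured members, grouped by role, with the SE from limma as bars and the median of all genes (-0.07) as a dashed line. Most points lie left of 0, Cth (-0.69) and Sdf2l1 (-0.51) lie farthest left and Sesn2 (0.19) farthest right.

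Among the sensors, Eif2ak3, the ER kinase of eIF2alpha, had log2 values of 9.76, 9.84, 9.65 and 9.86 in the Hmga2 KO samples and 9.68, 9.74 and 9.52 in the wild type samples. The ranges overlapped, and the difference was 0.13 (SE 0.0988, adjusted p = 0.574, limma). Eif2ak4, the kinase that senses uncharged tRNA, differed by 0.10 (adjusted p = 0.683). Ern1, the kinase and nuclease that splices Xbp1, had 10.10, 10.01, 9.88 and 10.03 in Hmga2 KO and 10.25, 10.25 and 10.06 in wild type. Only Hmga2 KO replicate 1 reached above the lowest wild type sample there, and the difference was -0.18 (SE 0.0974, adjusted p = 0.443, limma). On the most variable of its 5 probe sets, which is dim, Ern1 differed by 0.24, in the other direction.

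Atf4, the factor at the centre of the amino acid response, had 12.77, 13.07, 13.11 and 12.82 in Hmga2 KO and 12.90, 13.15 and 13.12 in wild type. The samples of both genotypes interleaved, and the difference was -0.11 with a 95% interval of -0.38 to 0.16 (adjusted p = 0.697, limma). Xbp1, the factor activated by splicing, differed by -0.09 (adjusted p = 0.843), and its 3 other probe sets by -0.14 to -0.12; the array table does not separate the spliced form. Atf6, the membrane-bound factor, differed by -0.16 (adjusted p = 0.696), and by 0.01 between the female samples alone.

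Of the factors that Atf4 induces, Atf3 was widely spread within each genotype. Atf3, a stress-induced repressor, had 7.09, 8.16, 8.39 and 7.43 in Hmga2 KO and 7.46, 8.51 and 7.71 in wild type. Its samples ranged over more than 1 log2 unit in both genotypes, and the difference was -0.13 (SE 0.344, adjusted p = 0.893, limma). Ddit3 (CHOP), a factor tied to cell death under lasting stress, differed by -0.09 (adjusted p = 0.843) and Atf5, a relative of Atf4, by -0.23 (adjusted p = 0.414). The dimmer probe set of Ddit3 differed by 0.13, in the other direction.

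Stress effectors made up the group of targets with the lowest median, -0.38. Trib3, a pseudokinase that restrains Atf4 and Akt, had 9.06, 9.76, 9.87 and 9.40 in Hmga2 KO and 9.40, 10.66 and 9.70 in wild type. Hmga2 KO replicate 1 was lowest and wild type replicate 2 stood 1.10 above the mean of the other 2 wild type samples, while the remaining samples overlapped (difference -0.40, SE 0.297, adjusted p = 0.573, limma). Eif4ebp1, which restrains cap-dependent translation, had 10.51, 11.26, 11.16 and 10.85 in Hmga2 KO and 11.16, 11.78 and 11.35 in wild type. With an unadjusted p of 0.0413, it differed by -0.49 (95% interval -0.95 to -0.02, adjusted p = 0.357, limma), and its 2 dimmer probe sets differed by -0.50 and -0.27.

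Stc2, a secreted stanniocalcin, also had a difference of -0.49 (SE 0.262, adjusted p = 0.439, limma), with Hmga2 KO replicates 1 and 4 at 8.87 and 9.10 and every other sample at 9.70 or more. Vldlr, a lipoprotein receptor, differed by -0.36 (SE 0.326, adjusted p = 0.639), and wild type replicate 2, at 11.89, was its highest sample. Chac1, an enzyme that degrades glutathione, differed by -0.16 (adjusted p = 0.786). Sesn2, a leucine-binding inhibitor of mTORC1, was the exception to the order of this group, with 9.47, 9.50, 9.68 and 9.68 in Hmga2 KO and 9.46, 9.46 and 9.26 in wild type. Every Hmga2 KO sample lay above every wild type sample, by little, as for 2.37% of all genes; the difference was 0.19 (SE 0.103, adjusted p = 0.449, limma).

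**Figure D2:**
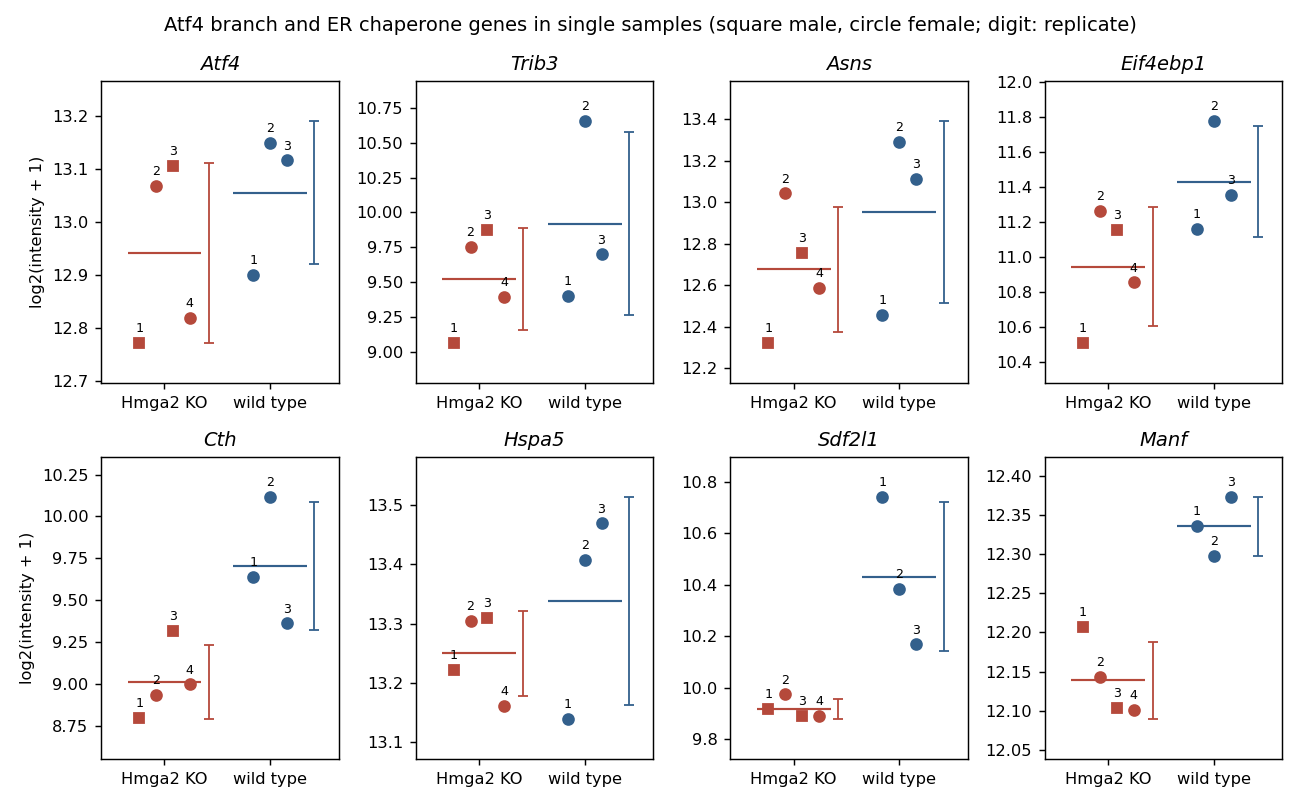
Log2(intensity + 1) of 8 members in each sample, Hmga2 KO (red) left of wild type (blue), with squares for males, circles for females, digits for replicates, horizontal lines for means and bars for the SD; each panel has its own axis. In Trib3, Asns and Eif4ebp1 Hmga2 KO replicate 1 is lowest and wild type replicate 2 highest, whereas in Cth, Sdf2l1 and Manf the genotypes do not overlap.

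Enzymes of serine, glycine and folate metabolism lay lower in Hmga2 KO for 4 of 5 genes, none past the test. Phgdh, the first enzyme of serine synthesis, had 12.28, 12.50, 12.45 and 11.98 in Hmga2 KO and 12.33, 12.72 and 12.86 in wild type. Its difference was -0.33 (SE 0.163, adjusted p = 0.414, limma), its 3 other probe sets differed by -0.39 to -0.37, and wild type replicate 1 lay within the Hmga2 KO range. Psat1, the next enzyme of the path, had 12.89, 13.17, 13.03 and 12.78 in Hmga2 KO and 13.15, 13.24 and 13.25 in wild type. Of the Hmga2 KO samples, only replicate 2 reached past the lowest wild type sample (difference -0.25, SE 0.11, adjusted p = 0.376, limma). Psph, the last enzyme, differed by -0.20 (adjusted p = 0.678) and Mthfd2, a mitochondrial folate enzyme, by -0.22 (adjusted p = 0.424). Shmt2, which makes glycine from serine in mitochondria, had means of 11.35 in both genotypes (difference 0.01, adjusted p = 0.983).

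Cth was the Atf4 target with the largest difference. It encodes cystathionine gamma-lyase, which forms cysteine, and had 8.80, 8.93, 9.32 and 9.0 in Hmga2 KO and 9.64, 10.12 and 9.36 in wild type. Every Hmga2 KO sample lay below every wild type sample, as for 9.29% of all genes, although Hmga2 KO replicate 3 and wild type replicate 3 lay close together. The difference was -0.69 (SE 0.186, 95% interval -1.12 to -0.27), a fold of 0.618, with an unadjusted p of 0.00471 and an adjusted p of 0.27 by limma. Asns, which makes asparagine, had 12.32, 13.04, 12.76 and 12.59 in Hmga2 KO and 12.46, 13.29 and 13.11 in wild type. Its genotypes overlapped (difference -0.28, SE 0.221, adjusted p = 0.6, limma), as did those of Aldh18a1, the first enzyme of proline synthesis (difference -0.24, adjusted p = 0.585).

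Of the 5 amino acid carriers, 4 had small differences. Slc7a5, the light chain of the leucine carrier, differed by -0.14 (adjusted p = 0.602) and Slc3a2, its heavy chain, by -0.21 (adjusted p = 0.676). Slc7a1, a carrier of cationic amino acids, had 13.21, 13.44, 13.32 and 13.38 in Hmga2 KO and 13.36, 13.45 and 13.35 in wild type. This difference of -0.05 had a 95% interval of -0.26 to 0.16, and that of Slc1a4, a carrier of neutral amino acids, was -0.05 too (adjusted p = 0.88, limma). The dimmer probe sets of Slc1a4 differed by -0.25 and -0.23. Slc7a3, another cationic carrier, had 8.24, 8.39, 8.81 and 8.95 in Hmga2 KO and 8.54, 9.86 and 8.72 in wild type. Wild type replicate 2 stood 1.23 above the mean of the other wild type samples there, and those samples lay within the Hmga2 KO range (difference -0.44, SE 0.309, adjusted p = 0.545, limma).

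The Atf4 targets were extreme in the same 2 samples. Wild type replicate 2 was the highest of the 7 samples for 17 of 22 Atf4 targets (77.3%), against 23% of all genes, and Hmga2 KO replicate 1 was the lowest for 17 of 22, against 21.3% of all genes. The mean deviation of the 22 targets from the 7-sample mean was -0.37, 0.08, 0.04 and -0.15 in Hmga2 KO replicates 1 to 4 and -0.10, 0.46 and 0.05 in wild type replicates 1 to 3. Without these 2 samples the Hmga2 KO and wild type values interleave. Wild type replicate 2 lay above the mean of the other wild type samples for all 22 targets, with a median gap of 0.49, where the median gap of all genes was -0.00044. Hmga2 KO replicate 1 lay below the mean of the other Hmga2 KO samples for 20 of 22, with a median gap of -0.34.

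Leaving out wild type replicate 2 alone brought the median difference of the Atf4 targets to -0.04, and that of all genes was then -0.08. Of the targets 14 of 22 were then lower, where 69.0% of all genes were. With Hmga2 KO replicate 1 left out as well, a choice made after the values were seen and at the extremes of these very genes, 9 of 22 were lower and the median was 0.02. Of all genes 67.6% were lower there, with a median of -0.08. Cth still differed by -0.42 in that comparison (adjusted p = 0.343, limma) and Phgdh by -0.28. Trib3, at 0.12, Vldlr, at 0.22, and Atf3, at 0.41, then had higher means in Hmga2 KO, and 0 members passed.

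**Figure D3:**
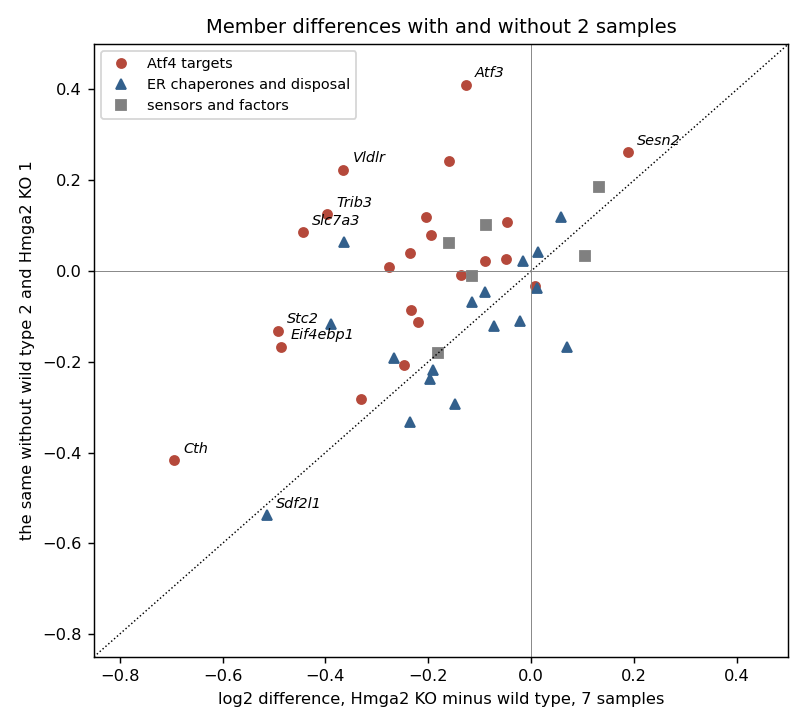
Log2 difference (Hmga2 KO minus wild type) of each member over all 7 samples (horizontal) and without wild type replicate 2 and Hmga2 KO replicate 1 (vertical); the dotted line marks equal values. The Atf4 targets lie above the line for the most part, with 9 of 22 still below 0, while 13 of 17 ER genes lie below 0. Of all genes 67.6% were lower without those 2 samples.

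Sarcomere genes, which mark differentiating cells, moved over the same samples. Of 20 such genes, 18 were highest in wild type replicate 2 and 18 lowest in Hmga2 KO replicate 1, and their summed intensity was 50082, 114173, 76931 and 87463 in Hmga2 KO replicates 1 to 4 and 99668, 139138 and 118148 in wild type replicates 1 to 3. Of these genes 12 had an unadjusted p under 0.05, all lower, where 10.3% of all genes were lower, and 0 passed the adjusted threshold. With the replicate number as a block 17 were lower, where 8.67% of all genes were, and 2, Myh8 and Tcap, passed. The 12 became 4 without wild type replicate 2, where 8.4% of all genes were lower. They became 5 without wild type replicate 3 (5.5% of all genes), without Hmga2 KO replicate 3 (6.61%) and with a trended and robust prior (9.82%). The count was 12 without wild type replicate 1 (13.7% of all genes) and 17 without Hmga2 KO replicate 2 (13.8%). In the females alone 6 were lower, where 4.64% of all genes were, and with sex as a covariate 4 were, where 5.13% were. In the females the median of the 20 genes was -0.27, against -0.62 over all samples. Without both wild type replicate 2 and Hmga2 KO replicate 1, 18 of the 20 had lower means, where 67.6% of all genes did. At an unadjusted p under 0.05, 4 were lower there, where 8.64% of all genes were. The median of the 20 was then -0.26, beside -0.08 for all genes and 0.02 for the Atf4 targets. Male Hmga2 KO samples were below female ones for 15 of the 20 at an unadjusted p under 0.05, where 3.65% of all genes were, with 0 past the adjusted threshold. The smallest p were those of Myh8 (mean log2 9.29 in Hmga2 KO and 10.63 in wild type), Tcap (8.42 in Hmga2 KO and 9.41 in wild type) and Casq2 (11.98 in Hmga2 KO and 12.90 in wild type). Fibroblast markers had a summed intensity of 18653 to 22316 in Hmga2 KO and 16403 to 17410 in wild type, with 4 of 14 higher at an unadjusted p under 0.05, where 2.99% of all genes were, and 0 past the adjusted threshold; with the replicate block 1, Smoc2, passed. The list did not move as one: 10 means were higher and 4 lower in Hmga2 KO. The median difference was 0.08 (0.03 in females alone), and Col1a1 lay lowest at -0.71 (unadjusted p = 0.523, limma). With the dimmest 40% of genes left out, 8 markers remained and 7 of them were higher. Their median was then 0.43, beside -0.10 for all genes. Of the 4 higher at an unadjusted p under 0.05, Mgp had means of 12.16 in Hmga2 KO and 11.42 in wild type. Smoc2 had 8.27 and 6.60, and Islr 10.76 and 9.96, in that order. The 13 leukocyte and endothelial markers summed to 973 to 987 in Hmga2 KO and 985 to 1039 in wild type, with 0 under 0.05, and the smallest p were those of Pecam1 (0.163), Csf1r (0.164) and Tie1 (0.186). The part of these cell states, and of the 3′ to 5′ ratio of wild type replicate 2, in the values of the Atf4 targets was not tested.

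**Figure D4:**
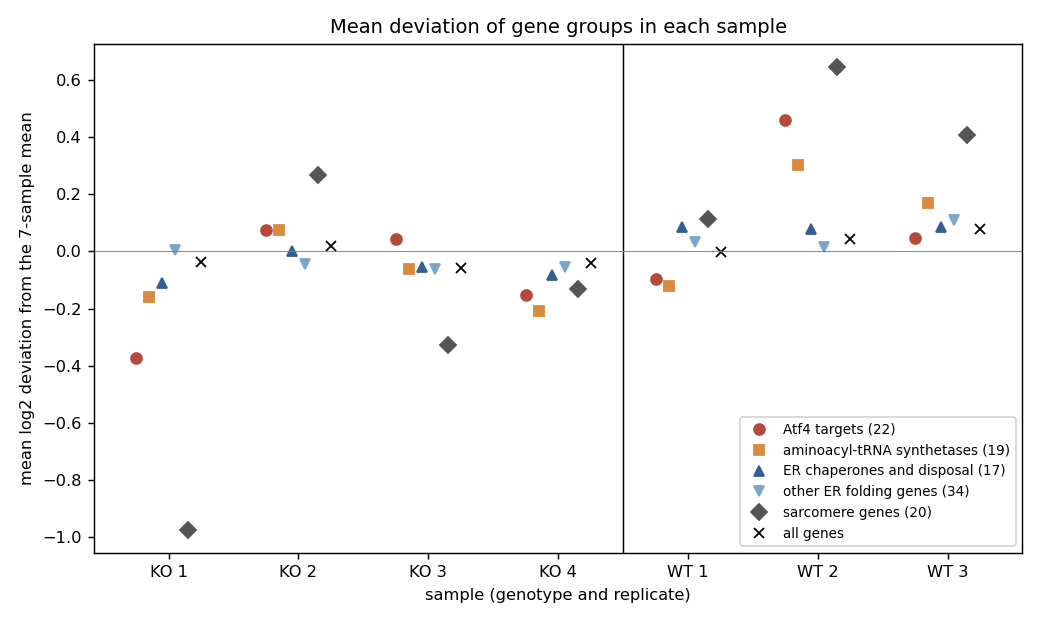
Mean log2 deviation from the 7-sample mean for 6 groups of genes in each sample, Hmga2 KO left of the vertical line and wild type right of it. Atf4 targets, aminoacyl-tRNA synthetases and sarcomere genes are highest in wild type replicate 2 (0.46, 0.30 and 0.64), and the ER genes stay within -0.11 to 0.09 in all samples.

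The ER genes did not share these extremes. Their mean deviation was -0.11, -0.00038, -0.05 and -0.08 in Hmga2 KO replicates 1 to 4 and 0.08, 0.08 and 0.09 in wild type replicates 1 to 3, so that the genotypes did not overlap and the wild type samples were nearly equal. The all-gene mean was -0.04, 0.02, -0.06 and -0.04 in Hmga2 KO and -0.0016, 0.04 and 0.08 in wild type. Wild type replicate 2 was the highest sample for 2 of 17 ER genes and Hmga2 KO replicate 1 the lowest for 3 of 17. Their median difference of -0.12 was -0.04 after quantile normalization, where that of all genes was -0.03, and -0.12 without those 2 samples.

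Sdf2l1, a cofactor of the chaperone BiP, had the smallest p of all members. Its values were 9.92, 9.97, 9.89 and 9.89 in Hmga2 KO, against 10.74, 10.38 and 10.17 in wild type. The Hmga2 KO samples lay close to each other and below every wild type sample, while the wild type samples were widely spread. The difference was -0.51 (SE 0.132, 95% interval -0.81 to -0.21), a fold of 0.701, with an unadjusted p of 0.00372 and an adjusted p of 0.259 by limma. Across the alternatives it was -0.64 to -0.36, and its adjusted p 0.170 to 0.667.

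A small shift with little spread was seen in Manf and Dnajb11. Manf, an ER-held and secreted survival factor, had 12.21, 12.14, 12.10 and 12.10 in Hmga2 KO and 12.34, 12.30 and 12.37 in wild type. Its genotypes did not overlap and differed by -0.20 (SE 0.083, unadjusted p = 0.0417, adjusted p = 0.358, limma). Dnajb11, a J-domain partner of BiP, had 12.15, 12.20, 12.05 and 12.03 in Hmga2 KO and 12.35, 12.27 and 12.28 in wild type, also with no overlap (difference -0.19, SE 0.0878, adjusted p = 0.388, limma). Cth, Sdf2l1, Manf and Dnajb11 were the 4 members with every Hmga2 KO sample below every wild type sample, a share close to the 9.29% of all genes.

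Hspa5 (BiP), the main chaperone of the ER and the usual readout of ER stress, did not share that pattern. It had 13.22, 13.31, 13.31 and 13.16 in Hmga2 KO and 13.14, 13.41 and 13.47 in wild type, with wild type replicate 1 the lowest of all samples. The difference was -0.09 with a 95% interval of -0.33 to 0.15 (adjusted p = 0.737, limma). Hsp90b1 (GRP94), its Hsp90-class partner, differed by -0.02 (95% interval -0.24 to 0.21, adjusted p = 0.96). Hyou1, a large Hsp70-class chaperone, had 11.58, 12.02, 11.74 and 11.70 in Hmga2 KO and 12.10, 12.06 and 11.93 in wild type. Hmga2 KO replicate 2 lay within the wild type range, and the difference was -0.27 (SE 0.118, adjusted p = 0.375, limma). Dnajb9, a target of Xbp1 and partner of BiP, differed by 0.06 (adjusted p = 0.815) and Dnajc3 (p58IPK), an inhibitor of Eif2ak3, by -0.15 (adjusted p = 0.601). The dimmer probe sets of Dnajc3 differed by -0.43 to -0.07.

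The lectin chaperones and disulfide enzymes showed mainly small differences. Calr (calreticulin) had 13.92, 13.86, 13.86 and 13.99 in Hmga2 KO and 13.93, 13.81 and 13.95 in wild type. The samples interleaved, and the 95% interval of the difference was -0.19 to 0.21. Canx (calnexin) differed by -0.02 (adjusted p = 0.937) and Pdia3, the disulfide enzyme that works with both, by -0.07 (adjusted p = 0.757). Pdia6 differed by -0.24 (adjusted p = 0.419) and Creld2, an ER protein with disulfide isomerase activity, by -0.12 (adjusted p = 0.751, limma). The dimmer probe set of Pdia6 differed by 0.13 and that of Pdia3 by 0.09, in the other direction. Those of Canx differed by -0.02 and 0.12.

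Pdia4, another disulfide enzyme, varied far more, with 10.32, 11.42, 11.19 and 10.73 in Hmga2 KO and 11.49, 11.45 and 10.97 in wild type. It was lowest in Hmga2 KO replicate 1 (difference -0.39, SE 0.253, adjusted p = 0.516, limma). In the disposal group, Herpud1, which helps to export misfolded proteins, had 10.43, 11.46, 11.09 and 11.13 in Hmga2 KO and 10.98, 11.85 and 11.35 in wild type. Its lowest and highest samples were those of most Atf4 targets (difference -0.36, SE 0.26, adjusted p = 0.556, limma). Its window is the only one of an ER gene that holds the C/EBP-ATF element, and a link to its values was not tested. Sel1l, the scaffold of the disposal ligase, differed by 0.01 (adjusted p = 0.961) and Edem1, a lectin that marks proteins for disposal, by 0.07 (adjusted p = 0.879). The dimmer probe sets of Sel1l differed by -0.21 to 0.05, and that of Edem1 by -0.21.

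**Figure D5:**
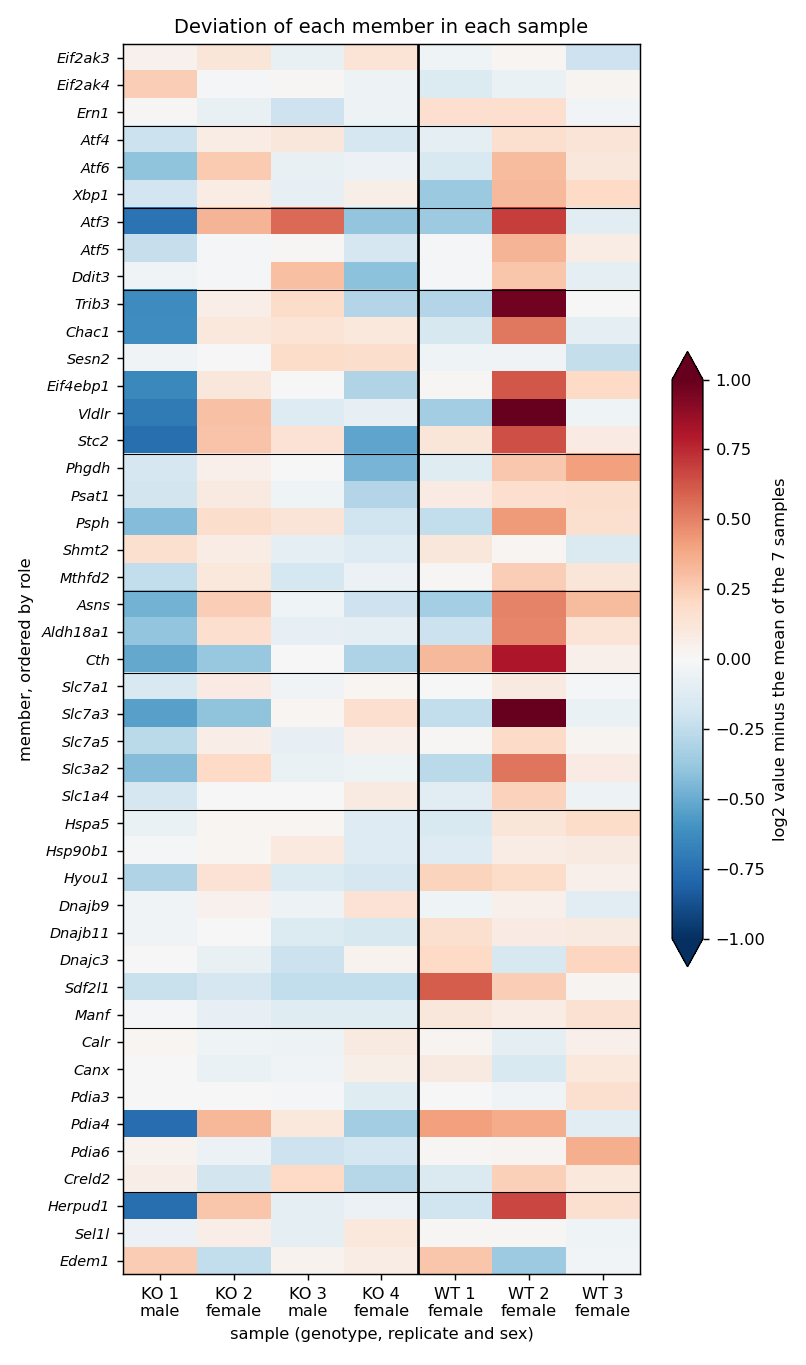
Deviation of each member's log2 value from its mean over the 7 samples (colour, cut at -1 and 1), with members ordered by role and Hmga2 KO samples left of wild type samples. The columns of Hmga2 KO replicate 1 and wild type replicate 2 carry the strongest colours in the Atf4 target rows, while most ER chaperone rows are pale.

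Sex could be compared within Hmga2 KO only. Between the 2 male and the 2 female Hmga2 KO samples, 0 of 45 members passed (limma, 3-group model of all 7 samples), where 0.0385% of all genes did. At an unadjusted p under 0.05, 1 member was higher in males, Creld2, with a difference of 0.37 (adjusted p = 0.782), and 0 were lower; the shares of all genes were 2.65% and 3.65%. Males differed from females by a median of -0.14 for the Atf4 targets and -0.01 for the ER genes, and the male group includes Hmga2 KO replicate 1. Between the 5 females alone, the median difference between Hmga2 KO and wild type was -0.11 for the Atf4 targets and -0.11 for the ER genes, beside -0.05 for all genes. Cth (-0.74, unadjusted p = 0.0089) and Sdf2l1 (-0.50, unadjusted p = 0.0239) were the members under 0.05 there, both lower, where 4.64% of all genes were, and 0 members were higher, where 2.21% were. The adjusted p was 0.555 for Cth and 0.667 for Sdf2l1 (limma).

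Other genes of the same pathways were read from lists that are not part of the 46. Of 19 measured cytosolic aminoacyl-tRNA synthetases, several of them known Atf4 targets, 19 had lower means in Hmga2 KO (18 after quantile normalization), where 67.6% of all genes did (57.2% after it). Their median was -0.20 and 0 passed; 1 was lower at an unadjusted p under 0.05, where 10.3% of all genes were. That gene, Vars, the valine enzyme, had means of 8.09 in Hmga2 KO and 8.68 in wild type (difference -0.59, SE 0.149, adjusted p = 0.256, limma). Without wild type replicate 1, 10 of the 19 were lower at an unadjusted p under 0.05, where 13.7% of all genes were. Under the other alternatives 1 or 2 were. Wild type replicate 2 was the highest sample for 15 of the 19. Without it and Hmga2 KO replicate 1, 15 of the 19 were lower, where 67.6% of all genes were. The median was then -0.06, beside -0.08 for all genes.

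Of 18 other genes of the integrated stress response, 11 had lower and 7 higher means in Hmga2 KO, where 67.6% of all genes were lower. The list median was -0.08, beside -0.07 for all genes. None passed, and at an unadjusted p under 0.05, 3 were lower and 1 higher, where 10.3% and 2.99% of all genes were. Shmt1, the cytosolic counterpart of Shmt2, had means of 10.01 in Hmga2 KO and 10.42 in wild type (adjusted p = 0.281). Fgf21, a secreted factor induced by Atf4 in muscle and liver, had 7.30 ± 0.70 (SD, n = 4) in Hmga2 KO and 8.41 ± 0.94 (SD, n = 3) in wild type (adjusted p = 0.358, limma). The glutamine carrier Slc1a5 had 9.23 and 9.60 (adjusted p = 0.372) in that order. Slc7a11, the cystine carrier, was the 1 gene higher at an unadjusted p under 0.05. Its means were 8.63 in Hmga2 KO and 8.15 in wild type (adjusted p = 0.36, limma), opposite to Cth, the other source of cysteine.

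Of 34 other ER folding and disposal genes, 0 passed, 3 were lower and 0 higher at an unadjusted p under 0.05, where 10.3% and 2.99% of all genes were, and the list median was -0.08, close to the -0.07 of all genes. After quantile normalization the list stood at -0.0097, with 0 lower and 1 higher at that p, where 6.47% and 4.42% of all genes were. Sil1, the nucleotide exchange factor of BiP, had means of 9.78 in Hmga2 KO and 10.04 in wild type (difference -0.26, SE 0.0854, adjusted p = 0.298, limma). Ero1a, the oxidase that drives disulfide formation, had 11.92 in Hmga2 KO and 12.20 in wild type (adjusted p = 0.316), and for both genes the genotypes did not overlap. Txndc5, a disulfide enzyme, had 10.37 and 10.72 in that order (adjusted p = 0.374).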

How the data were processed

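The deposited values are intensities per probe set, linear and not log-transformed, for 45101 probe sets in 7 samples; every array has a median of 150, so the authors scaled them. Biotinylated cRNA was hybridised to Affymetrix arrays, per the labels; the summarization of probes and its software: not given in the sources used here. The lowest intensities were 33.2 to 36.7, so a dim gene's difference is understated.

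Values were taken as log2(intensity + 1). The platform annotation paired 34945 probe sets with 1 gene, 932 with several and 9160 with none, besides 64 controls; 34741 of those with 1 gene were found by gene identifier in RefSeq (GRCm38.p6). Each of 18193 genes was read from its brightest probe set among those of 1 gene. The members had 65 other probe sets, of which 52 differed in the direction of the one used. The test was that of limma 3.58.1 (lmFit and eBayes, R 4.3.3), with no covariate; p-values were adjusted by Benjamini-Hochberg across the genes, with 0.05 as the threshold, and unadjusted ones come from the same model. The scripts were tested on simulated data.

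The members and lists were chosen with earlier results of these data known. All members are named; from the other lists, up to 3 genes per direction with an unadjusted p under 0.05, and from the markers the 3 with the smallest p. Promoter windows of 39 of the 46 genes were in the RefSeq table, and of each branch the 3 with the motif and the smallest p are printed. The array table names no genome build. Replicates are biological, per the labels. The number of arrays limits the precision.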

Additional observations from a re-analysis of the deposited data

Results flagged for a closer look

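Within the 4 Hmga2 KO samples, each of the 45 members was examined for a sample far from the others by Dixon's criterion, which singles out about 1 in 20 groups by chance. The criterion singled out 2 of the 45, near that rate. Chac1 stood out for replicate 1, at 10.91 against 11.64 to 11.67 in the other 3 samples. Pdia3 stood out for replicate 4, at 13.09 against 13.20 to 13.21, a gap of small size. The wild type group has 3 samples and was not examined in this way.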

How the results depend on the processing

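No member passed the adjusted threshold under any of the 18 alternatives (the replicate number as a block, sex as a covariate, the 5 females only, each of the 7 samples left out, quantile normalization, the dimmest 40% of genes left out, the average of a gene's probe sets, its most variable one, a pseudocount of 16, a trended and robust prior, and, chosen after seeing the data, the brightest probe set in each sample and 2 samples left out). The smallest adjusted p of a member was 0.170, without Hmga2 KO replicate 2. At an unadjusted p under 0.05, 2 to 9 members were lower and 0 or 1 higher. The 9 were reached with the trended and robust prior, where 9.82% of all genes were lower, and without Hmga2 KO replicate 2, where 13.8% were; after quantile normalization 2 were lower and 1 higher, where 6.47% and 4.42% of all genes were. For male against female Hmga2 KO, 0 members passed wherever that fit was run; it was not run with sex as a covariate, on females or without both samples. The median difference of the Atf4 targets ran from -0.36 to -0.036 when 1 sample was left out, with -0.036 without wild type replicate 2, and was 0.024 without wild type replicate 2 and Hmga2 KO replicate 1. That of the ER genes ran from -0.17 to -0.060 when 1 sample was left out, with -0.060 without Hmga2 KO replicate 4. It was -0.037 after quantile normalization, where all genes stood at -0.03, and -0.073 with the mean of all probe sets. With the replicate block it was again -0.060. There, Hmga2 KO replicate 4 has no wild type sample of its number, so the block gives the same differences as leaving it out. Sex as a covariate and the females only likewise share their differences, since no wild type sample is male. The causes of the other shifts were not tested. With the replicate block the Atf4 targets stood at -0.22 and 0 members passed, while 99 of all genes did, against 5 without it; 2 sarcomere genes and 1 fibroblast marker were among those 99. Without Hmga2 KO replicate 2, 17 genes passed, and 16 did without both wild type replicate 2 and Hmga2 KO replicate 1. Under the other alternatives 2 to 5 did. Deviations of same-numbered samples from their genotype's mean correlated at 0.31, 0.37 and -0.18, and not every sample correlated best with its own number, so they were not taken as pairs. These are the replicate numbers of the sample titles; the labels also carry other sample numbers, and for Hmga2 KO replicate 2 those differ between fields. Signal over background limits dim genes most, and no member was among the dimmest 40% of genes.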
